A study of Mus musculus with 22 samples.

Results

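The contactins and the contactin-associated genes were followed at 9 loci, Cntn1, Cntn3, Cntn4, Cntn5, Cntn6, Cntnap2, Cntnap4, Cntnap5a and Cntnap5b, of 21701 protein-coding genes. Members were taken by name, with earlier results of these data known, so that their counts beside genome-wide shares are descriptions. Each was measured in every bin that overlapped its span in the GENCODE vM21 annotation on mm10. These spans overlapped 85 of the 25664 bins of 100 kb that were usable for 5mC, and 15 of the 2581 bins of 1 Mb that were usable for 5hmC. No member bin was lost to the filter, which removed bins listed at 0 or 1 in any library.

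The animals were female C57BL/6 mice of 8 weeks with no treatment, and whole cerebral cortex without the hippocampus, olfactory bulb and cerebellum were compared. The study asked how 5mC and its oxidized form 5hmC differ between these brain tissues. For 5mC, oxBS-seq was done, in which 5hmC is oxidized before bisulfite treatment so that only 5mC still reads as C, with 3 libraries from the cortex and 2 each from the olfactory bulb and the cerebellum. For 5hmC, TAB-seq was done, in which 5hmC is protected by glucose and 5mC is oxidized away, on 3 libraries per tissue. The replicates came from independent mice. A level is the fraction of reads or sites in a bin that carried the mark, from 0 to 1, and the tables hold no coverage, so that the depth behind the level of a bin is unknown. Every tissue is a mixture of cell types, and a lower level in fewer cells cannot be told apart from a lower level in all of them.

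Library means of 5mC over all bins ranged from 0.660 to 0.687 in the cortex, from 0.705 to 0.709 in the olfactory bulb and from 0.723 to 0.739 in the cerebellum, and replicate 3 of the cortex was the lowest. Those of 5hmC ranged from 0.155 to 0.173, from 0.142 to 0.150 and from 0.0938 to 0.0969, in the same order of tissues. These shifts of whole libraries enter the values of every locus, so the counts below are also given after centring each library on its median. As a check of the tissue labels, 10 of 12 marker loci had their lowest 5mC in the labelled tissue, 8 of them without overlap of the libraries, and the exceptions Gabra6 and Eomes were lowest in the cortex. Those without overlap were 4 of 4 loci for the cortex, 3 of 4 for the cerebellum and 1 of 4, Dlx1, for the olfactory bulb. The check was therefore weakest for the olfactory bulb.

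Contactins are cell adhesion molecules of the immunoglobulin superfamily that are tethered to the membrane by a lipid anchor, whereas the contactin-associated proteins, or Caspr proteins, are transmembrane relatives of the neurexins. Members of the families pair with each other on axons: Cntn1 with Cntnap1 beside the node of Ranvier, and Cntn2 with Cntnap2 next to it, where potassium channels cluster. In the brain they are known for axon guidance, myelinated fibres and synapse formation, and several of their genes are among the longest that neurons express. In neurons, 5hmC is abundant in the bodies of expressed genes.

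The members lie on 5 chromosomes. Cntn3 (chr6:102162655-102573101, minus strand), Cntn6 (chr6:104492790-104863406, plus) and Cntn4 (chr6:105677660-106699310, plus) follow each other on chromosome 6, which also holds Cntnap2 (chr6:45059357-47304213, plus), the longest member at 2245 kb. The others are Cntn1 (chr15:92051165-92341967, plus), Cntn5 (chr9:9660891-10904775, minus), Cntnap4 (chr8:112570043-112882717, plus), Cntnap5a (chr1:115684756-116587323, plus) and Cntnap5b (chr1:99772765-100485942, plus). The shortest was Cntn1, with 291 kb in 4 bins, and Cntnap2 filled 24 bins. Member bins were poor in CpG sites, the dinucleotides in which the marks were measured. Their median was 455 CpG sites, with quartiles of 411 and 540, against 751 over all usable bins, and their median GC content was 38.1% against 41.2%. Cntn1 and Cntnap4 stood apart, with medians of 797.5 and 779 CpG sites per bin.

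The start regions of the members differed in the same feature. RefSeq promoters on GRCm38.p6 were found for 7 of the 9 members, and Cntnap4 and Cntnap5a had no entry. The letters CG, which read the same on both strands, were counted in the 250 bases before each start. Cntn5 held 24 before its first start, more than 88.0% of the 32851 promoters in the table, Cntnap5b held 12, more than 66.5%, and Cntn1 held 7, more than 53.7%. The median over all promoters was 6, with quartiles of 2 and 16, and 92.1% held at least 1. The 3 sequences below are shown because they end before the annotated start of the gene, which the other entries do not. Those other entries lie inside the genes or across their start and held from 0 CG, at Cntn3, to 26, at Cntn5. They run 5′ to 3′ on the strand of the gene, from chr15:92050915-92051164 (plus), chr9:10904776-10905025 (minus) and chr1:99772151-99772400 (plus), and capitals mark CG.
Cntn1: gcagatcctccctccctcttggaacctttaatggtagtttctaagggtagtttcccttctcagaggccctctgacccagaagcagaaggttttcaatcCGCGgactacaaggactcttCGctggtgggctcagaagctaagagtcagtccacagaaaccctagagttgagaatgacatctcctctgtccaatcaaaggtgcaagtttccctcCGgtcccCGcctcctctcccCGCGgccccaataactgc
Cntn5: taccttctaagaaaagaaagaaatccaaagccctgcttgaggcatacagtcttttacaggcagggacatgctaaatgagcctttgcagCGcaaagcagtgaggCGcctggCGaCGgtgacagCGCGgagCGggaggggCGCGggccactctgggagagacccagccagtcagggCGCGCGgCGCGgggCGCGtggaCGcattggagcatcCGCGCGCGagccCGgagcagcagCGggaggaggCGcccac
Cntnap5b: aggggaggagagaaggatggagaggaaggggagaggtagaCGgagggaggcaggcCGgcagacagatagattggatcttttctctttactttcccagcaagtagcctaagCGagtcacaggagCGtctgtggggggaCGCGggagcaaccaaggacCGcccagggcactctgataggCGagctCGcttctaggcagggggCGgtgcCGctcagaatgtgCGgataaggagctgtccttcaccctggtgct
A bin of 100 kb is far longer than these stretches, so the levels below do not resolve the promoters themselves.

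Among the contactins, 5mC was higher in the cerebellum than in the cortex at all 5 genes. Cntn3, which binds the receptor phosphatase Ptprg, had levels of 0.669, 0.670 and 0.655 in the cortex, 0.764 and 0.752 in the olfactory bulb and 0.806 and 0.787 in the cerebellum. The tissues did not overlap, and the olfactory bulb lay closer to the cerebellum than to the cortex. Cntn4, a partner of the amyloid precursor protein App, was at 0.675, 0.664 and 0.649 in the cortex, 0.740 and 0.740 in the olfactory bulb and 0.796 and 0.781 in the cerebellum. Cntn5, known from the auditory system, was at 0.700, 0.690 and 0.671, then 0.735 and 0.741, then 0.810 and 0.792, in the same order. At these 3 genes the tissues formed the same order with no overlap, cortex below olfactory bulb below cerebellum. Cntn1, Cntn6, Cntnap2, Cntnap5a and Cntnap5b, described below, had this order without overlap as well. So did the library means over all bins.

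Cntn6, known for its expression in cerebellar granule cells, differed in its upper end. Its levels were 0.702, 0.690 and 0.687 in the cortex, 0.744 and 0.746 in the olfactory bulb and 0.767 and 0.752 in the cerebellum, so that the olfactory bulb and the cerebellum were close. Cntn1, the contactin of the paranode, was the lowest member in every tissue, at 0.637, 0.632 and 0.621 in the cortex, 0.639 and 0.641 in the olfactory bulb and 0.700 and 0.689 in the cerebellum. There the cortex and the olfactory bulb were close, and the cerebellum stood above both.

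Tests were made with limma on log2(level/(1 − level)), a log2 ratio of modified to unmodified, over 21664 protein-coding genes with Benjamini-Hochberg adjustment. The difference in this log2 ratio between the cerebellum and the cortex was 0.98 ± 0.11 (SE) at Cntn3 (limma adjusted p = 1.98e-10), 0.92 at Cntn4 (adjusted p = 1.05e-09) and 0.88 at Cntn5 (adjusted p = 4.44e-09). It was 0.48 at Cntn6 (adjusted p = 0.000245) and 0.42 at Cntn1 (adjusted p = 0.00132). Over all genes the median difference was 0.29. Between the olfactory bulb and the cortex, the limma adjusted p was 2.45e-05 for Cntn3, 0.000501 for Cntn4, 0.0162 for Cntn5 and 0.0123 for Cntn6, and Cntn1 was not called (difference 0.06, adjusted p = 0.665). From the olfactory bulb to the cerebellum, Cntn1, Cntn3, Cntn4 and Cntn5 were called, and Cntn6 was not (difference 0.11, limma adjusted p = 0.539).

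The contactin-associated genes followed 2 patterns. At Cntnap2, which holds potassium channels in place at the juxtaparanode, levels were 0.696, 0.700 and 0.677 in the cortex, 0.724 and 0.724 in the olfactory bulb and 0.791 and 0.773 in the cerebellum. The step to the cerebellum was larger than that from the cortex to the olfactory bulb, whose difference in log2 ratio was 0.23 (limma adjusted p = 0.113), against 0.68 between the cerebellum and the cortex (adjusted p = 1.15e-06) and 0.45 between the cerebellum and the olfactory bulb (adjusted p = 0.00412). With only genes of at least 200 kb in the fit, the difference of 0.23 passed the threshold (adjusted p = 0.0157).

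The Cntnap5 genes, which are less well characterised, were nearly alike. Cntnap5a was at 0.707, 0.702 and 0.678 in the cortex, 0.756 and 0.765 in the olfactory bulb and 0.786 and 0.770 in the cerebellum, and Cntnap5b was at 0.710, 0.709 and 0.693, 0.760 and 0.757, and 0.794 and 0.776. Both were higher in the cerebellum than in the cortex, each with a log2 ratio difference of 0.62 (limma adjusted p = 8.04e-06 and 6.62e-06), and higher in the olfactory bulb than in the cortex (adjusted p = 0.00199 and 0.00769). Neither passed between the cerebellum and the olfactory bulb (adjusted p = 0.422 and 0.194), although at both genes the libraries of the tissues did not overlap. Cntnap5b passed there with only genes of at least 200 kb in the fit (0.22, limma adjusted p = 0.0308) and with only bins wholly inside genes (0.25, adjusted p = 0.0372).

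Cntnap4, known from inhibitory interneurons, was the exception. Its levels were 0.696, 0.714 and 0.674 in the cortex, 0.706 and 0.696 in the olfactory bulb and 0.726 and 0.702 in the cerebellum, and the tissues overlapped. No pair passed the test, and the log2 ratio difference between the cerebellum and the cortex was 0.13 ± 0.11 (SE; limma adjusted p = 0.318). After centring the libraries, Cntnap4 was lower in the cerebellum than in the cortex, by a log2 ratio of -0.28 (limma adjusted p = 0.00821).

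**Figure D1:**
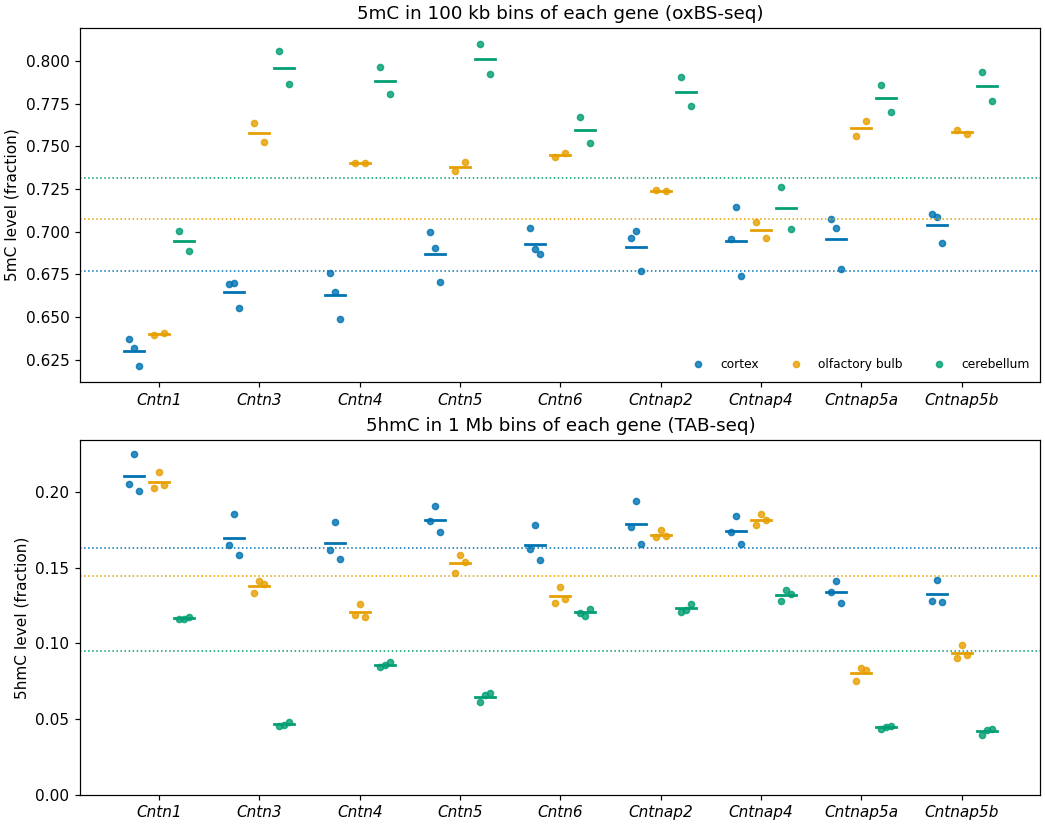
Levels of 5mC (fraction, means of 100 kb bins, 7 oxBS-seq libraries) and of 5hmC (fraction, means of 1 Mb bins, 9 TAB-seq libraries) at the 9 genes; each point is a library, short lines are tissue means, colours are tissues, and dotted lines give the mean of all bins in each tissue. At Cntn3 5mC went from 0.665 in the cortex to 0.796 in the cerebellum while 5hmC went from 0.170 to 0.0465, and at Cntnap4 the 5mC points of the tissues overlap.

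By counts, the members called higher were 6 of 9 between the olfactory bulb and the cortex, where 26.4% of all genes were called higher. They were 8 of 9 between the cerebellum and the cortex, where 55% of all genes were called higher and 4.27% lower, and 5 of 9 between the cerebellum and the olfactory bulb, where 18% of all genes were called higher. No member was called lower in any pair. For centring, genes were set against library medians of the 100 kb bins, not of genes. Between the cerebellum and the cortex the median log2 ratio difference was 0.43 over bins and 0.29 over genes, so all genes as a set lean lower after centring. The members are long genes, and their places among long genes are given below. After centring, 3 of 9 members were higher and 0 lower between the olfactory bulb and the cortex (3% and 4.94% of all genes), 6 higher and 1 lower between the cerebellum and the cortex (10.4% and 35.4%), and 3 higher and 0 lower between the cerebellum and the olfactory bulb (10.4% and 27.8%). Those 6 were Cntn3, Cntn4, Cntn5, Cntnap2, Cntnap5a and Cntnap5b, and the lower one was Cntnap4. The count of 6 fell to 3 without olfactory bulb replicate 1 and to 2 without replicate 2. The count of 5 was 3 without cortex replicate 1, 2 and 1 without olfactory bulb replicates 1 and 2, and 0 and 3 without cerebellum replicates 1 and 2.

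With 2 or 3 libraries per tissue, the exact permutation test of a single gene could not pass 0.05, since its smallest two-sided p was 0.2 for 2 against 3 libraries and 0.333 for 2 against 2. It reached 0.2 for the 8 called genes between the cerebellum and the cortex.

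Single bins showed the same directions. Of the 85 member bins, 79 were higher in 5mC in the cerebellum than in the cortex, 1 was lower and 5 were not called, where 71.9% of all bins were called higher and 4.44% lower. The median difference of the member bins was 0.0925 on the level scale and 0.70 in log2 ratio, against 0.43 in log2 ratio over all bins. Of the same bins, 54 were higher in the olfactory bulb than in the cortex (37.6% of all bins), with a median log2 ratio difference of 0.39 against 0.22 over all bins. A further comparison, of the cerebellum with the olfactory bulb, gave 49 higher (35.3% of all bins), with a median of 0.39 against 0.19. No member bin was lower in these last comparisons. All bins of Cntn3, Cntn4, Cntn5, Cntnap2, Cntnap5a and Cntnap5b were called higher in the cerebellum than in the cortex. The count of 54 fell to 29 and 35 without olfactory bulb replicates 1 and 2, and that of 49 to 24 without cerebellum replicate 1.

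Centring the libraries left 53 of the 85 bins higher and 4 lower between the cerebellum and the cortex, where all bins were split nearly evenly, 25.7% higher and 24.3% lower. For the olfactory bulb and the cortex, 27 were higher and 4 lower (8.81% and 9.9% of all bins), and between the cerebellum and the olfactory bulb 37 were higher and 3 lower (22.1% and 21.3%). By gene, 13 of 14 bins of Cntn5, 10 of 11 of Cntn4 and 5 of 5 of Cntn3 were still higher in the cerebellum than in the cortex, but 13 of 24 of Cntnap2 and 4 of 10 of Cntnap5a. Between the olfactory bulb and the cortex the bins that were still higher were mainly those of Cntn4 (8), Cntnap5a (6) and Cntn3 (5), and Cntnap2 had 1 higher and 2 lower.

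The bins with the largest differences lay inside the gene bodies. At chr6:106200001-106300000, in Cntn4 and 572 kb downstream of its start by the centre of the bin, 5mC was 0.659, 0.678 and 0.616 in the cortex, 0.758 and 0.754 in the olfactory bulb and 0.815 and 0.800 in the cerebellum. The cerebellum was above the cortex by 0.156 (limma adjusted p = 3.58e-20) and the olfactory bulb by 0.105 (adjusted p = 6.55e-08). At chr6:102300001-102400000, in Cntn3, the tissue means were 0.641, 0.749 and 0.795, with differences from the cortex of 0.108 and 0.154.

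The largest steps from the olfactory bulb to the cerebellum lay towards the 3′ ends of other members. At chr6:47200001-47300000, the last bin wholly inside Cntnap2, levels were 0.630, 0.650 and 0.643 in the cortex, 0.641 and 0.630 in the olfactory bulb and 0.766 and 0.756 in the cerebellum. The cortex and the olfactory bulb overlapped, and the cerebellum was above the olfactory bulb by 0.126 (limma adjusted p = 6.42e-10). At chr9:9800001-9900000, in Cntn5, the means were 0.701, 0.718 and 0.818, and the difference of the cerebellum from the olfactory bulb in log2 ratio was 0.82 (limma adjusted p = 6.90e-09).

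The only member bin that was lower in the cerebellum than in the cortex was chr8:112600001-112700000, inside Cntnap4. Its levels were 0.691, 0.719 and 0.667 in the cortex, 0.702 and 0.674 in the olfactory bulb and 0.660 and 0.645 in the cerebellum. The cerebellum lay just below the lowest cortex library, with a mean difference of -0.0398 (limma adjusted p = 0.0340). The call was lost, with a count of 0, without cortex replicate 1 or 2, without either library of the olfactory bulb and without either library of the cerebellum. The next bin to the 3′ side did not pass (means 0.705, 0.716 and 0.732), and the bin at the 3′ end of the gene was higher in the cerebellum (0.700, 0.716 and 0.784).

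**Figure D2:**
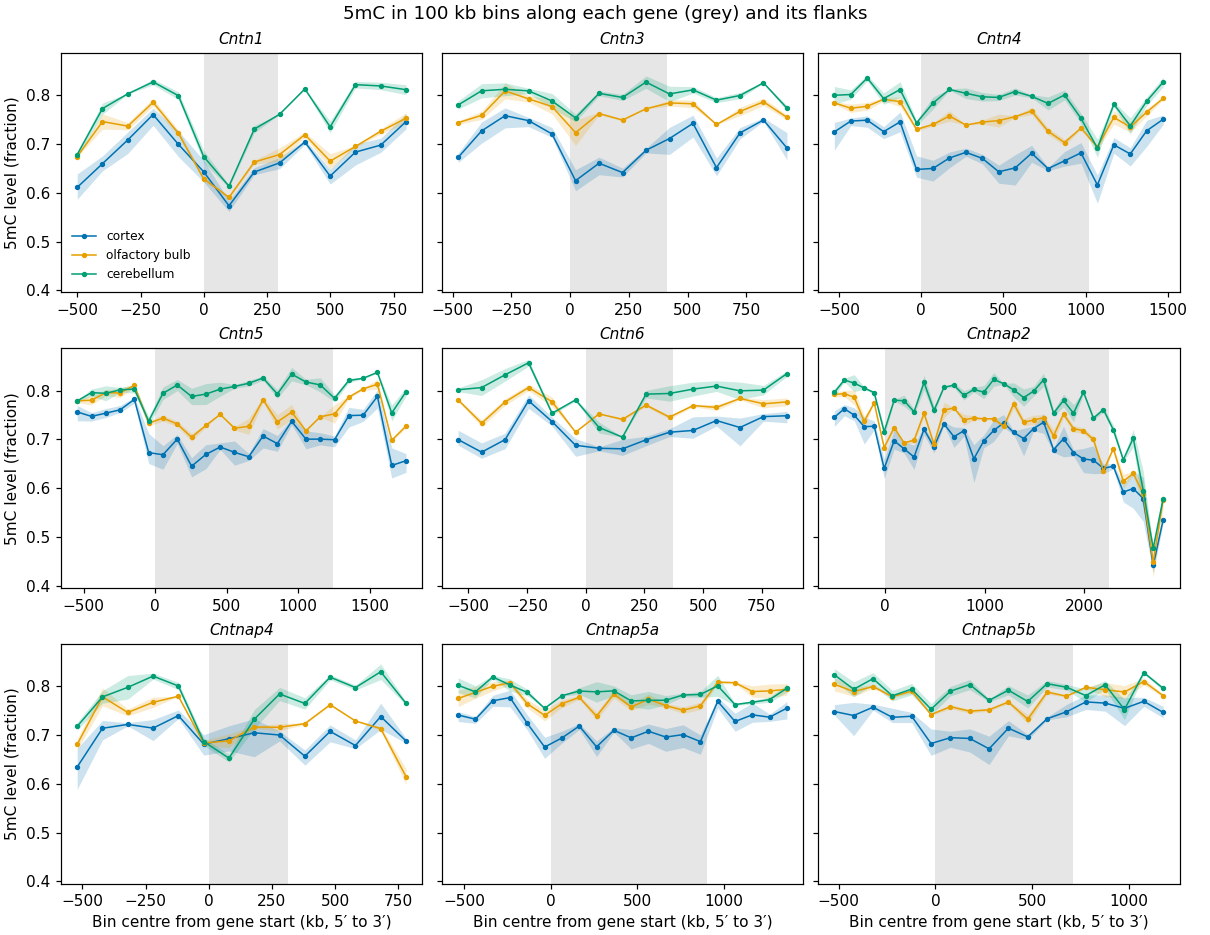
Level of 5mC (fraction) in 100 kb bins along each of the 9 genes and their flanks, against the distance from the transcription start in kb in the direction of transcription; lines are tissue means, coloured shading is the range of the libraries and the grey area is the gene. At Cntn3, Cntn4 and Cntn5 the cortex dips inside the gene while the cerebellum does not, and at Cntn6 and Cntnap4 the cerebellum dips inside the gene.

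Transcription start bins were the lowest or close to the lowest of several members. The start bin had the lowest mean over the tissues at Cntn3, Cntn4, Cntnap5a and Cntnap5b, with cortex means from 0.625 to 0.683. At the others the lowest bin was inside the gene. For Cntn1 it was chr15:92100001-92200000, with means of 0.573 in the cortex, 0.590 in the olfactory bulb and 0.613 in the cerebellum. For Cntn6 it was chr6:104600001-104700000, with 0.681, 0.741 and 0.705, the cerebellum being below the olfactory bulb there without overlap of the libraries but not past the threshold (limma adjusted p = 0.0840).

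To see whether the gene bodies differed from their surroundings, the mean 5mC of the bins wholly inside each gene was set against that of the 8 bins wholly within 500 kb of its ends, 4 per side, in the same library. A shift of a whole library cancels in this difference. Limma was run on the fraction scale over 994 genes of at least 200 kb.

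In the cortex, 7 of 9 members were lower inside than in their flanks (48% of the 994 genes) and Cntnap2 was higher (38.3%). The difference was -0.0643 ± 0.00545 (SD, n = 3) at Cntn3, -0.0481 ± 0.00683 at Cntn4 and -0.0602 ± 0.00671 at Cntn5. It was -0.0476 ± 0.00691 at Cntnap5a and -0.0531 ± 0.00756 at Cntnap5b, and each library of these genes was below 0. In the olfactory bulb, 8 members were lower inside (44.9% of genes) and Cntnap2 was higher (36.9%). Without olfactory bulb replicate 1 or 2 that count was 5, Cntn3, Cntn4 and Cntn6 being lost, and with flanks of 1 Mb it was also 5.

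In the cerebellum, 3 members were lower inside, Cntn1, Cntn6 and Cntnap4 (34.2% of genes), and 2 were higher, Cntn4 and Cntnap2 (44.7%). The median over the 994 genes also moved, from -0.00739 in the cortex and -0.00628 in the olfactory bulb to 0.00768 in the cerebellum. Cntn3 and Cntn5 were at 0.00322 ± 0.00176 (SD, n = 2) and 0.00383 ± 0.00472 and did not pass in either direction. Cntn4 was at 0.0179 ± 0.00317, but with flank bins outside coding genes only it was at 0.00347 and did not pass (limma adjusted p = 0.614), and it was also lost without cerebellum replicate 1 (adjusted p = 0.0626) or 2 (adjusted p = 0.135). With flanks of 1 Mb, 5 members were lower inside in the cerebellum, Cntnap5a and Cntnap5b being added, and Cntn3 was higher (0.0270, limma adjusted p = 0.000494).

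The change of this difference between tissues was itself tested. From the cortex to the cerebellum it was higher at 6 members (43.8% of genes), Cntn3 by 0.0675 (limma adjusted p = 5.33e-06), Cntn4 by 0.0661 (adjusted p = 7.64e-06), Cntn5 by 0.0640 (adjusted p = 1.13e-05), Cntnap5b by 0.0480, Cntnap5a by 0.0406 and Cntnap2 by 0.0309. It was lower at the other 3 (25.5% of genes), Cntnap4 by -0.0982 (adjusted p = 7.64e-06), Cntn1 by -0.0413 (adjusted p = 0.00112) and Cntn6 by -0.0272 (adjusted p = 0.0129). No member was left uncalled. The median change over all the long genes was 0.0132. The call of Cntn1 was lost with flanks of 1 Mb (-0.0176, adjusted p = 0.109), and that of Cntn6 without cerebellum replicate 1 (-0.0238, adjusted p = 0.103), which left 2 members lower in each case.

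Between the olfactory bulb and the cortex, the difference was higher at Cntn3 and Cntn4 (24.3% of genes) and lower at Cntnap4 (24.8%). Between the cerebellum and the olfactory bulb it was higher at 5 members (40.6% of genes) and lower at Cntn1, Cntn6 and Cntnap4 (24.9%), and Cntn3 did not pass (0.0184, limma adjusted p = 0.0541). With flanks of 1 Mb, Cntn1 no longer passed for this pair (-0.00728, adjusted p = 0.530), and Cntn3 did (0.0222, adjusted p = 0.0158), as it did without cortex replicate 2 (adjusted p = 0.0413). Without cerebellum replicate 2, the calls of Cntn1, Cntnap2, Cntnap5a and Cntnap5b between the cerebellum and the olfactory bulb were lost, and without cerebellum replicate 1 those of Cntn1, Cntnap2 and Cntnap5a. Without olfactory bulb replicate 2 those of Cntn1, Cntnap2 and Cntnap5b were lost, and without olfactory bulb replicate 1 that of Cntnap5a. The call of Cntnap4 between the olfactory bulb and the cortex was lost without olfactory bulb replicate 2 (-0.0261, adjusted p = 0.166). For that pair Cntn6 (0.0271, limma adjusted p = 0.0163) and Cntnap5b (0.0221, adjusted p = 0.0330) were added to the higher members without cortex replicate 3, and Cntnap5a (0.0206, adjusted p = 0.0379) without cortex replicate 2.

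At Cntn6 the gap inside the gene body was widest in the cerebellum. Its flanks were at 0.727 in the cortex, 0.773 in the olfactory bulb and 0.808 in the cerebellum, while the inside was at 0.687, 0.755 and 0.741. The body lay below the flanks by -0.0705 and -0.0637 in the libraries of the cerebellum, against -0.0192 and -0.0179 in the olfactory bulb, with no overlap. At Cntnap4 the inside was at 0.699, 0.702 and 0.692, in the same order of tissues, and the flanks were at 0.709, 0.750 and 0.801. Neither flank of Cntnap4 holds a coding gene. In the cortex the sign at Cntnap4 depended on the flanks, with -0.0102 at 500 kb (adjusted p = 0.182) and 0.0220 at 1 Mb (limma adjusted p = 0.0121).

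Cntnap2 was above its flanks in every tissue, by 0.0481 ± 0.00262, 0.0559 ± 0.00371 and 0.0790 ± 0.00226 (SD). Its flank bins at the 3′ side hold other coding genes, which cover 17.7% of the flanks. With only the 5 flank bins outside coding genes, Cntnap2 was below its flanks in the cortex, by -0.0136 (limma adjusted p = 0.0213), did not pass in the olfactory bulb (-0.00855) and remained above them in the cerebellum (0.0212, adjusted p = 0.00794). Coding genes cover 67.2% of the flanks of Cntn1, and with its single flank bin outside coding genes the body was still lower in all tissues, by -0.0914 in the cortex, -0.0952 in the olfactory bulb and -0.127 in the cerebellum.

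**Figure D3:**
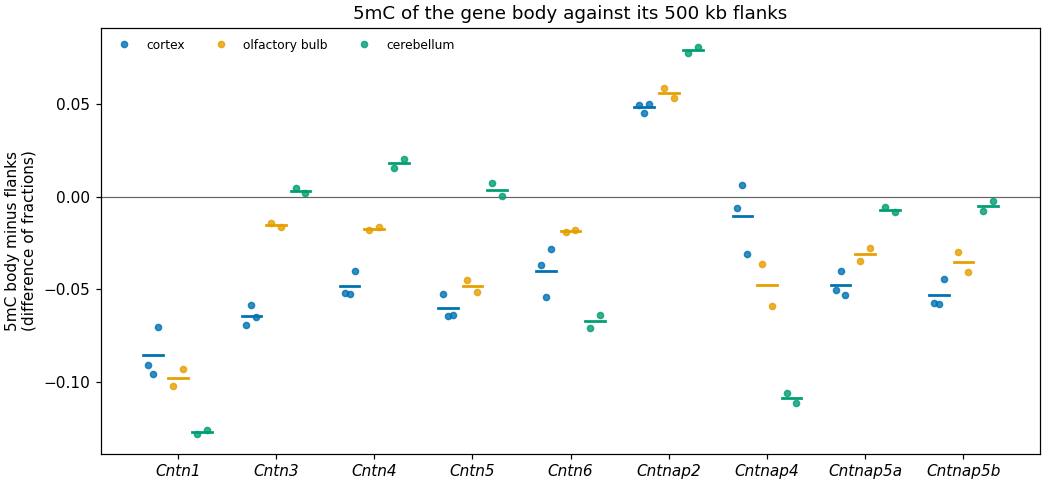
Difference in 5mC (fraction) between the bins wholly inside each gene and the flank bins within 500 kb, per oxBS-seq library; each point is a library, bars are tissue means and colours are tissues. The points of the cortex lie below 0 at 7 genes, those of the cerebellum reach -0.108 on average at Cntnap4 and -0.127 at Cntn1, and Cntnap2 is above 0 throughout.

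Along the genes, the bins wholly in the 5′ part, up to the midpoint, were compared with those wholly in the 3′ part in the same library. This could be done for 7 members, since Cntn1 and Cntnap4 have no bin wholly inside each part, over 449 long genes. In the cortex the 5′ part was lower at 4 of 7, Cntn3, Cntn5, Cntn6 and Cntnap5b (37.6% of genes), by between -0.0172 and -0.0337. Cntn6 no longer passed there without cortex replicate 1 (-0.0150, limma adjusted p = 0.141), without cortex replicate 3 (-0.0122, adjusted p = 0.142) or without cerebellum replicate 1 or 2 (adjusted p = 0.0546). In the olfactory bulb no member passed in limma, and the nearest was Cntn5 (-0.0170, adjusted p = 0.0526). Without cortex replicate 3, which enters the shared variance, Cntn5 (adjusted p = 0.0399) and Cntn6 (adjusted p = 0.0448) passed in the olfactory bulb, and Cntn6 also without cortex replicate 2 (adjusted p = 0.0328). With the first and last of 3 equal parts compared instead, which Cntn3 and Cntn6 are too short for, Cntn4 was higher (0.0309, limma adjusted p = 0.00493) and Cntnap5b lower (-0.0346, adjusted p = 0.00767) at the 5′ end in the olfactory bulb.

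In the cerebellum the 5′ part was lower at 2 of 7, Cntn6 and Cntn3 (32.7% of genes). At Cntn6 the difference was -0.0647 and -0.0720 in the libraries of the cerebellum, -0.0153 and -0.0209 in those of the olfactory bulb and -0.0217, -0.00274 and -0.0274 in those of the cortex. The cerebellum lay well below both other tissues, by -0.0511 against the cortex (limma adjusted p = 0.00271) and by -0.0502 against the olfactory bulb (adjusted p = 0.00490). Cntn6 was the only one of the 7 members called in these comparisons, where 20.9% and 19.2% of genes were called lower. It rests on 1 bin in each part: chr6:104500001-104600000 had means of 0.682, 0.752 and 0.724 in cortex, olfactory bulb and cerebellum, and chr6:104700001-104800000 had 0.699, 0.770 and 0.793. The value at Cntn3 in the cerebellum (-0.0230, adjusted p = 0.0432) did not pass without cortex replicate 1, without either library of the olfactory bulb or without either library of the cerebellum, which left a count of 1.

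Levels of 5hmC were lowest in the cerebellum at every member, and the order of the cortex and the olfactory bulb varied. Bins of 1 Mb were used, of which a single gene may fill only a part: Cntn6 covers 37.1% of its bin and Cntn3 41.0%, and Cntnap5b covers 22.7% and 48.6% of its bins, while 1 bin lies wholly inside Cntnap2. Except in that bin, the values are partly those of the surroundings.

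The steepest step was at Cntn3. Its 5hmC was 0.165, 0.186 and 0.158 in the cortex, 0.133, 0.141 and 0.139 in the olfactory bulb and 0.0452, 0.0462 and 0.0480 in the cerebellum, so that the cerebellum differed from the cortex by -72.6%. Cntn5 went from a mean of 0.182 ± 0.00875 (SD, n = 3) in the cortex to 0.153 ± 0.00624 and 0.0647 ± 0.00314. Cntnap5a (0.134, 0.0802 and 0.0446) and Cntnap5b (0.132, 0.0937 and 0.0420) started lower in the cortex and were the lowest members in the cerebellum.

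Other members kept more of the mark. Cntn6 had 0.162, 0.178 and 0.155 in the cortex, 0.127, 0.137 and 0.129 in the olfactory bulb and 0.120, 0.118 and 0.123 in the cerebellum, a difference of -27.1% of the cerebellum from the cortex. Its olfactory bulb and cerebellum did not overlap but lay close, the lowest library of the former being at 0.127 and the highest of the latter at 0.123. Cntnap4 (0.174, 0.182 and 0.132), Cntnap2 (0.179, 0.172 and 0.123) and Cntn1 (0.210, 0.207 and 0.116) had libraries of the cortex and the olfactory bulb that overlapped. At Cntn4, the bin with the start had 0.150, 0.113 and 0.0618, and the next bin had 0.181, 0.128 and 0.110.

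Among the 9 genes, 5hmC was lower in the cerebellum than in the cortex without overlap at 9, as at 98.3% of all protein-coding genes, and lower in the cerebellum than in the olfactory bulb at 9, as at 90% of genes. It was lower in the olfactory bulb than in the cortex at 6, where 77% of genes were, the others being Cntn1, Cntnap2 and Cntnap4. Each difference without overlap had an exact permutation p of 0.1, the smallest that 3 against 3 libraries allow. In limma over 2581 bins, 15 of 15 member bins were lower in the cerebellum than in the cortex (97.6% of all bins), 14 lower in the cerebellum than in the olfactory bulb (91.8%), the exception being Cntn6 (limma adjusted p = 0.0601; with a replicate block the count was 15), and 11 lower in the olfactory bulb than in the cortex (67.7%). Such counts follow the shift of the whole genome, whose median log2 ratio differences were -0.97, -0.72 and -0.24.

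Relative to that shift, member bins went both ways, as bins of the whole genome did. After centring, 6 bins were higher in the cerebellum than in the cortex (50.3% of all bins) and 8 were lower (40.1%). The higher ones were the bin of Cntn6, the 3 of Cntnap2, that of Cntnap4 and 1 of Cntn4, and the lower ones were those of Cntn3, Cntn5, Cntnap5a and Cntnap5b and the other of Cntn4. The centred log2 ratio difference was -1.02 at Cntn3 and 0.57 at Cntnap4. Against the olfactory bulb, the cerebellum was higher in 6 bins (50.9%) and lower in 8 (39.1%) after centring, and the olfactory bulb was higher than the cortex in 4 (36.2%) and lower in 9 (33%).

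The neighbouring 1 Mb bins that the 500 kb flanks of a gene reached gave a local comparison, as a description. In the cerebellum, the bin of Cntn6 was above its neighbours by 0.0364 ± 0.00405 (SD, n = 3), although it differed from them by only -0.000611 ± 0.00259 in the cortex. Cntn3 was below its neighbours in every library, by -0.0202 in the cortex, -0.00948 in the olfactory bulb and -0.0472 in the cerebellum. Cntn1 was above its neighbour in the cortex and the olfactory bulb (0.00848 and 0.0216) and below it in the cerebellum (-0.0269). Cntn5, Cntnap2, Cntnap4 and Cntnap5a were above their neighbours in all 9 libraries. One neighbour of Cntn6 is a bin of Cntn4 and the other is also a neighbour of Cntn3. Cntnap5b was not compared, since its flanks end inside its own bins.

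Together the marks made up most of the CpG signal. The sum of mean 5mC and mean 5hmC in the 1 Mb bins lay between 0.829 and 0.910 at all members and tissues, against 0.840, 0.852 and 0.826 over all bins of cortex, olfactory bulb and cerebellum. The share of 5hmC in this sum was lower in the cerebellum than in the cortex at each of the 9 genes, as a description. It was 19.5% in the cortex and 5.49% in the cerebellum at Cntn3, 20.7% and 7.44% at Cntn5, and 15.3% and 5.03% at Cntnap5b. At Cntnap2 it was 21.2% and 14.1% and at Cntn6 18.9% and 13.3%, against 19.4% and 11.5% over all bins. Cntnap4 had the highest share of the members in the cerebellum, 14.9%.

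The sum was tested in limma on the fraction scale over the 16 libraries of both assays. Between the olfactory bulb and the cortex it was higher in 3 of 15 member bins (5.66% of all bins), the first bin of Cntnap2 (0.0392), the bin of Cntn3 (0.0370) and that of Cntnap4 (0.0394). In the cerebellum against the cortex it was higher in 3 (3.99%), the first bin of Cntnap2 (0.0492), the bin of Cntn6 (0.0329) and the second bin of Cntn4 (0.0393), and lower in 2 (26.9%), the second bins of Cntnap5b (-0.0399) and Cntnap5a (-0.0345). In the cerebellum against the olfactory bulb it was lower in 5 (42.9%): both bins of Cntnap5b, 1 of Cntnap5a, the bin of Cntn3 (-0.0613, limma adjusted p = 3.89e-05) and 1 of Cntn5.

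Those sums rest on single libraries. The 3 calls between the olfactory bulb and the cortex became 0 without TAB-seq replicate 1 or 3 of the cortex or any library of the olfactory bulb, and 5 without TAB-seq replicate 2 of the cortex. For the cerebellum and the cortex, the 3 higher calls became 1 without oxBS-seq replicate 1 of the cerebellum. The 2 lower calls there became 1 without TAB-seq replicate 2 or oxBS-seq replicate 1 of the cortex or TAB-seq replicate 1 of the cerebellum, 0 without oxBS-seq replicate 2 of the cerebellum and 5 without oxBS-seq replicate 3 of the cortex. The 5 lower calls against the olfactory bulb became 2 without its oxBS-seq replicate 2 and 1 without oxBS-seq replicate 2 of the cerebellum. After centring, 5 bins were higher and 0 lower between the olfactory bulb and the cortex (22.6% and 9.84% of all bins). Then 10 were higher and 0 lower between the cerebellum and the cortex (52.3% and 15.1%), and 9 higher and 1 lower between the cerebellum and the olfactory bulb (47.6% and 15.8%), the lower one being Cntn3.

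**Figure D4:**
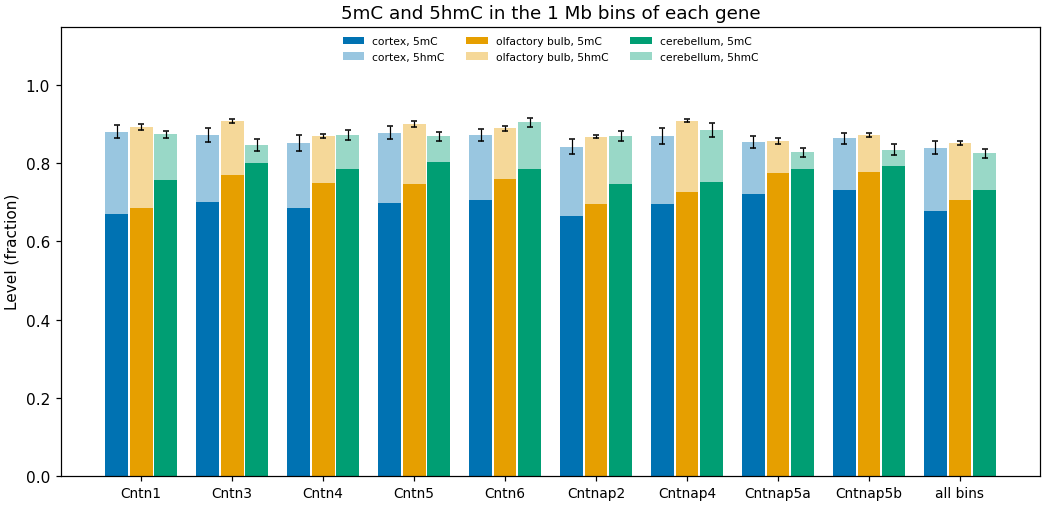
Mean 5mC and mean 5hmC (fractions, stacked) in the 1 Mb bins of each gene and of all bins, per tissue; error bars are the square root of the summed squared SDs of both assays. At Cntn3 the 5hmC part shrinks from 0.170 to 0.0465 between cortex and cerebellum while the sum changes from 0.872 to 0.847.

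Across the 15 member bins, 5mC and 5hmC were inversely related, with Pearson's r of -0.68 in the cortex, -0.69 in the olfactory bulb and -0.51 in the cerebellum. All 2581 bins gave -0.60, -0.58 and -0.53. These are descriptions across bins, several of which belong to the same gene and all of which share libraries and CpG density.

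The other genes of the families did not all follow. Of Cntn2, Cntnap1, Cntnap3 and Cntnap5c, 1 was higher in 5mC in the cerebellum than in the cortex and 2 were lower. Cntnap5c, the third Cntnap5 gene, had means of 0.710 in the cortex and 0.780 in the cerebellum (limma adjusted p = 7.52e-05). Cntn2, the partner of Cntnap2, was at 0.551 and 0.466 (adjusted p = 0.000211), and Cntnap1, the partner of Cntn1, was at 0.487 and 0.371 (adjusted p = 1.92e-06). They are 33.8 and 20.2 kb long and were each measured in 1 bin, most of which lies outside the gene. Cntnap3 did not pass (0.736 and 0.761, adjusted p = 0.146).

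Of 11 genes for proteins that bind these molecules or sit with them on axons, 7 were higher in the cerebellum than in the cortex, 1 was lower and 3 did not pass, beside 55% higher and 4.27% lower among all genes. Their median log2 ratio difference was 0.33, close to the 0.29 of all genes. The phosphatases Ptprg and Ptprz1, receptors for contactins, were higher (0.608 to 0.730 and 0.638 to 0.761), as were the adhesion molecules Nrcam and Chl1. Of the potassium channel genes, Kcna1 was lower (0.567 to 0.520, limma adjusted p = 0.0346) and Kcna2 was higher (0.545 to 0.605, adjusted p = 0.00783). They are 5.99 and 13.9 kb long and were each measured in 1 bin, most of which lies outside the gene. Nfasc, Epb41l3 and Adam22 were not called.

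Against the 995 protein-coding genes of at least 200 kb, the members were spread widely, which is given as a description. Of these genes, 93.1% had a smaller difference in 5mC level between the cerebellum and the cortex than Cntn3, 90.5% than Cntn4 and 84.2% than Cntn5. For Cntnap2, Cntnap5a and Cntnap5b the share was 70.3%, 60.3% and 59.3%. Cntn6, Cntn1 and Cntnap4 were in the lower part, at 44.6%, 43.2% and 15.2%. The median difference of the long genes was 0.0712, and that of Cntn3 was 0.131. By level in the cerebellum Cntn5 exceeded 96.0% of long genes and Cntn3 92.3%, whereas in the cortex Cntn3 exceeded 52.5%.

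The long genes most like each member were found by the root mean square difference over the 7 oxBS-seq libraries, after subtraction of the mean of each library, among 940 autosomal genes that share no bin with a member. The closest to Cntn6 was Brinp3 (0.00499), to Cntnap2 Hs3st5 (0.00510), to Cntnap5b Adamts17 (0.00527) and to Cntn4 Slc35f1 (0.00563). For Cntnap4 it was Hydin (0.00676), for Cntn5 Cdh12 (0.00682), for Cntnap5a Arhgap24 (0.00686), for Cntn1 Anks1b (0.00783) and for Cntn3 Lingo2 (0.00809). Next in order came Sntg1 for Cntn6, Galntl6 for Cntnap2, Lama2 for Cntnap5b, Khdrbs2 for Cntn4, Trhde for Cntnap4, Dok6 for Cntn5, Bbs9 for Cntnap5a, Samd4 for Cntn1 and Fam19a2 for Cntn3.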

How the data were processed

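The levels of 5mC and 5hmC were deposited by the authors as a fraction per bin for each library, in 100 kb bins for oxBS-seq and 1 Mb bins for TAB-seq. According to the methods, reads were mapped uniquely to mm10 with Bismark, sites were tested with a binomial model at an adjusted p of 0.05 with a coverage of at least 5, and the level was the share of unconverted reads. How sites were combined within a bin is not given in the sources used here, and the coverage of a bin is unknown. The RNA-seq samples were not analysed here.

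From these fractions, bins at 0 or 1 in any library were dropped, and levels were turned into log2(level/(1 − level)) and compared between tissues in limma (version 3.58.1, R 4.3.3), or kept on the fraction scale for flanks, gene parts and sums, with Benjamini-Hochberg adjustment over all features and calls at an adjusted p below 0.05. For the 5hmC bins and the sums, limma shrank the variances fully, so that each fit has 1 SE per contrast. Gene levels are means of the overlapping bins. Python 3.11.15, pandas 2.3.3, NumPy 2.4.6, SciPy 1.17.1 and Matplotlib 3.10.9 were used. The fits were tested on simulated data.

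The 9 members and the lists of family and partner genes were chosen with earlier results of these data known. Named bins were, per gene, the start bin and the bin of lowest mean 5mC, and per pair of tissues the 2 with the largest differences in either direction among called bins without overlap. Likewise 2 most similar long genes were named per member. In TAB-seq, cortex and olfactory bulb libraries of the same number deviated together (Pearson r 0.126, 0.344 and 0.250), and the other same-numbered libraries did not. Alternatives were centring, other transformations and filters, replicate blocks, other flanks and leaving out each library.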

Additional observations from a re-analysis of the deposited data

Results flagged for a closer look

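Differences between tissues in the 5mC of a gene body minus its flanks, and of the 5′ part minus the 3′ part, were marked for a closer look where the limma test of the difference itself passed.

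Between the olfactory bulb and the cortex, the body minus flank difference was higher by 0.0491 at Cntn3 and 0.0310 at Cntn4, and at Cntnap4 it differed by -0.0373.

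Between the cerebellum and the cortex it was higher by 0.0675 at Cntn3, 0.0661 at Cntn4, 0.0640 at Cntn5, 0.0480 at Cntnap5b, 0.0406 at Cntnap5a and 0.0309 at Cntnap2. It differed by -0.0982 at Cntnap4, -0.0413 at Cntn1 and -0.0272 at Cntn6.

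Between the cerebellum and the olfactory bulb it was higher by 0.0521 at Cntn5, 0.0351 at Cntn4, 0.0302 at Cntnap5b, 0.0239 at Cntnap5a and 0.0231 at Cntnap2. It differed by -0.0609 at Cntnap4, -0.0486 at Cntn6 and -0.0292 at Cntn1. The value at Cntn1 was -0.00728 with flanks of 1 Mb and did not pass (limma adjusted p = 0.530).

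The 5′ minus 3′ difference of Cntn6 was lower in the cerebellum than in the cortex, by -0.0511, and than in the olfactory bulb, by -0.0502. These values rest on 1 bin per part of the gene.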

How the results depend on the processing

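The 26 main results were counts of member bins or genes. Of their 346 alternatives, 283 gave the same count or one within 1.5 times of it. A reversal was not scored for counts. The cause of the other changes was not tested.

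After centring, the counts were 27 bins higher in 5mC between the olfactory bulb and the cortex and 4 lower between the cerebellum and the cortex, 3 genes higher between the olfactory bulb and the cortex and 3 between the cerebellum and the olfactory bulb, and 8 and 8 bins lower in 5hmC in the cerebellum. With 5hmC centred on the fraction scale, the genes below without overlap were 5 against the cortex and 3 against the olfactory bulb. The sums gave 5 and 10 higher and 0 and 1 lower. The single lower 5mC bin was lost, leaving 0, with all bins kept and with a replicate block by library name. On the fraction scale 3 genes were higher between the cerebellum and the olfactory bulb. Only 5 of the 5hmC bins were at least 50% covered by a gene, and of these 3, 5 and 5 were lower. With flanks of 1 Mb, 5 members were lower in the olfactory bulb and 5 in the cerebellum. With the gene cut into 3 parts, for which fewer members could be fitted, the counts of lower members were 2, 1, 0 and 0, the 1 in the cerebellum being Cntn5 (-0.0243), and Cntnap2 in the cortex (0.0197) and Cntn4 in the olfactory bulb (0.0309) were higher.

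Leaving out 1 library, the 5mC bin counts ranged from 29 to 56 between the olfactory bulb and the cortex, from 24 to 56 between the cerebellum and the olfactory bulb, and from 0 to 1 for the lower bin. Gene counts ranged from 2 to 6 and from 0 to 5, the flank count of the olfactory bulb from 5 to 8 and the part count of the cerebellum from 1 to 3. Sums ranged from 0 to 5, from 1 to 4 and 0 to 5 (cerebellum and cortex, higher and lower) and from 1 to 7. A tissue left with 1 library was assumed to vary like the others.

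Of single values that passed a test in the main fit or in the alternative, or had no overlap in the main comparison, 15 changed sign. After centring these included the 5mC of Cntnap4 (-0.28). The 5hmC of genes was centred by subtracting the library median on the fraction scale, whereas the 5hmC bins above were centred in log2 ratio. In uncentred log2 ratio, the Cntnap5b bins differed by -1.25 and -1.22 between the cerebellum and the olfactory bulb, against a median of -0.72 over all bins. On the fraction scale, 5hmC differences of the cerebellum changed sign from the cortex at Cntn4 (0.00159), Cntn6 (0.0368), Cntnap2 (0.0257) and Cntnap4 (0.0392). From the olfactory bulb they did so at Cntn4 (0.0239), Cntn6 (0.0480), Cntnap2 (0.00991), Cntnap4 (0.00899), Cntnap5a (0.0231) and Cntnap5b (0.00711). The overlapping 5hmC of the olfactory bulb and the cortex also changed sign, at Cntn1 (0.0193) and Cntnap2 (0.0158). With flanks of 1 Mb they were Cntn3 in the olfactory bulb (0.00482) and Cntnap4 in the cortex (0.0220), and with flanks outside coding genes Cntnap2 in the cortex (-0.0136) and olfactory bulb (-0.00855). The values of Cntnap4 in 5mC, after centring and with flanks of 1 Mb, passed only in the alternative.

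Same-numbered samples had r from -0.0906 to 0.0158 by label and from -0.00129 to 0.0725 by library name in oxBS-seq, and in TAB-seq from -0.229 to 0.0743 where the cerebellum was in the pair. With a replicate block by label, 52, 80 and 58 5mC bins were higher in the 3 pairs, against 54, 79 and 49 without it, and 11, 15 and 15 5hmC bins were lower, against 11, 15 and 14.

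The depth per bin is unknown, bins are far longer than promoters, and 2 or 3 libraries per tissue limit the precision.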
